A study of Mus musculus with 17 samples.

Results

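The TGF-beta superfamily ligands and antagonists were followed in senescent primary tubular epithelial cells (PTEC) and in ageing kidneys of the mouse. The members were 43 genes named by symbol, and all 43 were found among the 53313 gene identifiers shared by the 17 libraries. They comprised 6 TGF-beta ligands and receptors, 8 bone morphogenetic proteins (BMP), 9 growth differentiation factors (GDF), 5 activin, inhibin, Nodal and Lefty genes, 4 latent TGF-beta binding proteins and 11 antagonists and modulators. PTEC had been grown out of collagenase-digested kidneys of WT mice of the strain labelled C57BL/6Rj, which the authors' paper spells C57BL/6JRj. Cultures taken at day 6 without irradiation served as non-senescent PTEC (n = 4). Cultures taken at day 16 after 10 Gray of gamma irradiation served as senescent PTEC (n = 4). Kidneys came from untreated male WT mice of the same strain at 3, 12 and 24 months (n = 3 each), and RNA was made from a frozen piece of the right kidney. Irradiation and time in culture changed together between the PTEC groups, so that their effects cannot be told apart.

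Ligands of this superfamily are secreted as dimers, bind paired type I and type II serine/threonine kinase receptors and act on transcription through Smad proteins. TGF-beta is stored in the matrix in a latent complex with its propeptide and a latent TGF-beta binding protein, and must be released before it can bind. BMPs and activins are kept from their receptors by secreted antagonists such as noggin, gremlin and follistatin. In the kidney, TGF-beta is known for driving fibrosis, and BMP7 for its part in nephron formation and for opposing TGF-beta.

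Between 26963442 and 35409144 reads per library were counted on genes in PTEC and between 37311247 and 66894790 in kidneys, with depth rising with age. Levels are given as CPM, read counts scaled to a common library size. The 3-month kidneys were counted on a gene set that differed from that of the older kidneys, with 374 gene identifiers of its own against 1629, so that age and this difference cannot be told apart in comparisons with 3 months. PTEC are labelled proximal tubular cells. The summed level of 10 proximal tubule genes was 215 to 849.5 CPM in non-senescent and 169 to 353 CPM in senescent PTEC, against 10769 to 18670.5 CPM in 3-month kidneys. Lrp2, the endocytic receptor megalin, was the most abundant of them in PTEC, while the transporters Slc34a1, Slc22a6 and Slc22a8 had at most 3 counts in every senescent culture. The strand setting of the counting is not given in the sources used here, and 13 members share 63 to 1878 exonic bases with a gene on the opposite strand, whose reads could have been counted with them. Nothing in the labels ties the numbered libraries of a group to separate cultures or litters, so that p-values measure the spread between these libraries. In whole tissue and in mixed cultures, fewer cells of a type and less RNA per cell cannot be told apart.

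The first comparison asked which of these secreted factors change when PTEC become senescent. Of the 43 members, 35 passed the filter on low counts. In senescent PTEC, 19 of them were up-regulated and 3 were down-regulated, at an adjusted p under 0.05 in edgeR's quasi-likelihood test and an absolute log2 fold change above 0.5. Gdf6 is counted among the 19, but it passed the filter through the senescent cultures alone, so that its direction was fixed by the filter. Inha is also among the 19, and its non-senescent cultures were too low to pass the filter by themselves, so that the filter favoured its rise. Of all 15434 genes tested, 20.1% were up-regulated and 19.7% were down-regulated by the same rule. The median log2 fold change was 1.03 over the 35 members and -0.00 over all genes tested. In each of the 22 called members the 4 senescent cultures lay wholly above or wholly below the 4 non-senescent cultures. Gaps of this kind were found upwards in 22.1% and downwards in 19.9% of all genes tested. The rises took in ligands of each kind, 3 of the 4 latent TGF-beta binding proteins and 6 of the 11 antagonists and modulators, whereas the 3 falls were those of Bmp3, Bmp8b and Sostdc1. Bmp8a is counted among the rises and Bmp8b among the falls, but reads could have been split between them, so that their directions are uncertain. All 22 called members kept their call in every one of the 264 values from other scalings, filters, tools, the replicate block and the leaving out of single cultures.

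**Figure D1:**
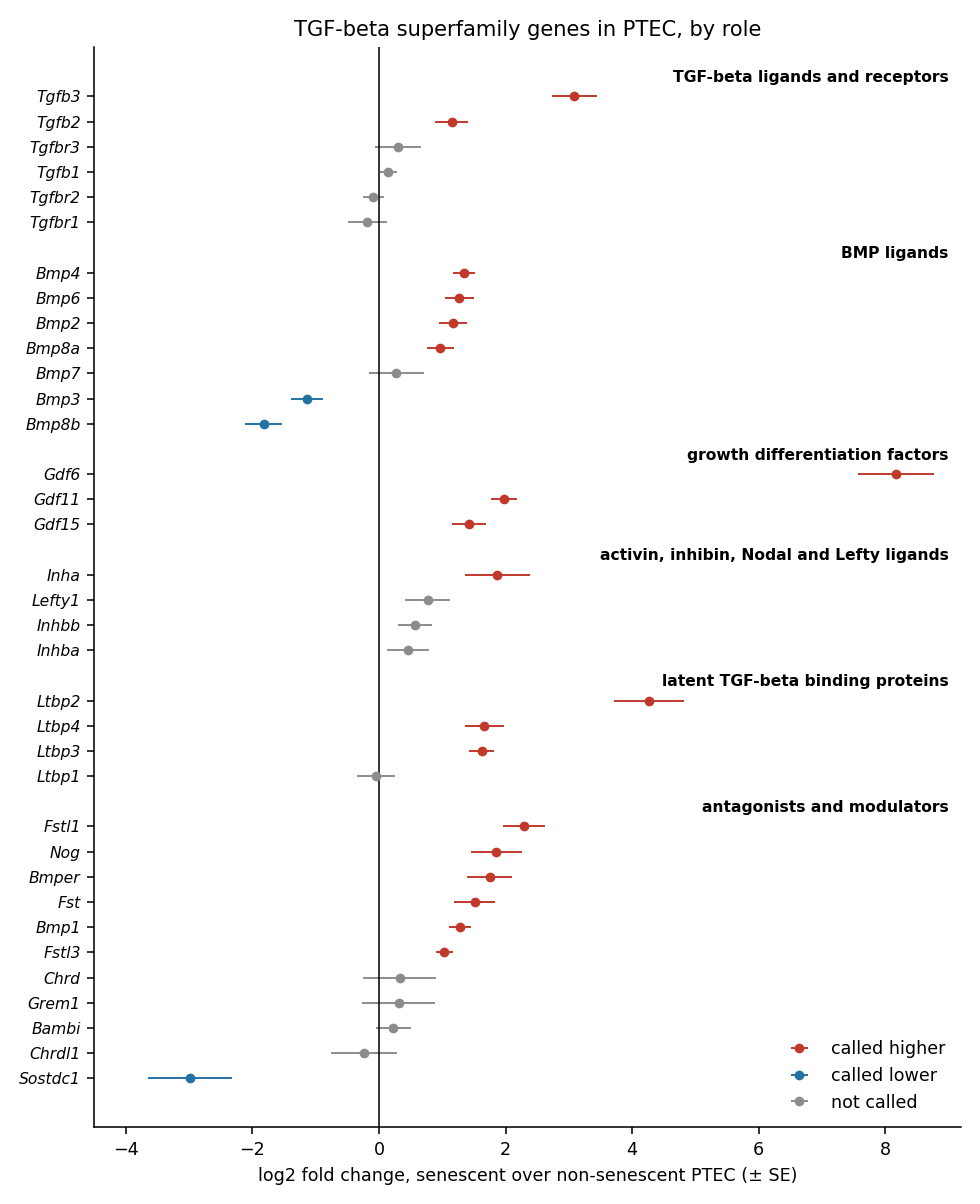
Log2 fold change (x axis, senescent over non-senescent PTEC, 4 cultures each) of the 35 members tested, one point per gene with its standard error as a bar, grouped by role and coloured by call. Of these, 19 were called higher (red) and 3 lower (blue), from -2.99 for Sostdc1 to 8.17 for Gdf6.

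Of the TGF-beta ligands, Tgfb2 and Tgfb3 rose and Tgfb1 did not pass the test. Tgfb3 (chr12:86056745-86079041, GRCm38, minus strand), a ligand required for closure of the palate, measured 8.55, 9.12, 4.16 and 5.39 CPM in non-senescent PTEC and 77.8, 55.7, 29.6 and 68.9 CPM in senescent PTEC. The lowest senescent culture was thus still well above the highest non-senescent culture. Mean levels were 6.80 ± 2.41 and 58.0 ± 21.0 CPM (SD, n = 4), a ratio of 8.52 and a log2 fold change of 3.09 (SE 0.35, adjusted p = 0.000143). Tgfb2 measured 17.03, 24.7, 15.9 and 36.2 CPM in non-senescent PTEC and 56.9, 49.4, 42.5 and 59.3 CPM in senescent PTEC. The groups did not overlap, with a log2 fold change of 1.15 (SE 0.26, adjusted p = 0.00567). Tgfb1, the isoform best known for its part in fibrosis, measured 41.7 ± 3.97 and 46.2 ± 5.49 CPM (SD, n = 4), and these groups overlapped (log2 fold change 0.15, adjusted p = 0.395). The 3 receptors Tgfbr1, Tgfbr2 and Tgfbr3, of which Tgfbr3 is the betaglycan coreceptor, had log2 fold changes of -0.19, -0.09 and 0.30 and none was called. Tgfbr2 ranged from 221 to 358 CPM in non-senescent PTEC and from 231 to 309 CPM in senescent PTEC.

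Of the 4 latent TGF-beta binding proteins, Ltbp2, Ltbp3 and Ltbp4 rose and Ltbp1 was not called. Ltbp2 (chr12:84783212-84876532, minus strand), a microfibril protein that does not bind latent TGF-beta itself, measured 16.4, 20.5, 20.9 and 63.1 CPM in non-senescent PTEC. In senescent PTEC it measured 675, 381, 301 and 973 CPM. Replicate 4 was the highest culture of each group, and every senescent culture exceeded every non-senescent one. The ratio of means was 19.2 and the log2 fold change 4.27 (SE 0.55, adjusted p = 0.000299), or 4.91 (SE 0.47) without non-senescent replicate 4. Ltbp2 shares 764 exonic bases with D030025P21Rik on the opposite strand. Ltbp3, needed for secretion of latent TGF-beta, rose from 158 ± 37.0 to 486 ± 86.7 CPM (SD, n = 4), with a log2 fold change of 1.62 (SE 0.20, adjusted p = 0.000248). Ltbp4, which takes part in elastic fibre assembly, rose from 5.23 ± 1.47 to 16.5 ± 6.17 CPM, with a log2 fold change of 1.66 (SE 0.31, adjusted p = 0.00211). Ltbp1 measured 53.3, 66.2, 30.9 and 58.8 CPM against 33.0, 36.0, 59.4 and 73.9 CPM and was higher in senescent PTEC in only 2 of the 4 numbered pairs.

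Of the 7 BMP ligands tested, Bmp2, Bmp4, Bmp6 and Bmp8a rose, Bmp3 and Bmp8b fell, and Bmp7 was not called. Bmp6, a regulator of iron balance, was the most abundant of them per kilobase of exon, at 25.4 CPM per kb in non-senescent and 61.4 CPM per kb in senescent PTEC. Its cultures measured 87.5, 77.8, 97.1 and 134 CPM against 277, 301, 176 and 205 CPM, without overlap (log2 fold change 1.27, SE 0.22, adjusted p = 0.0016). Bmp4, a ligand of the ureteric mesenchyme in development, was close to constant in non-senescent PTEC, at 11.8 to 12.6 CPM, and lay between 21.8 and 36.1 CPM in senescent PTEC (log2 fold change 1.34, SE 0.17, adjusted p = 0.000283). Bmp2, an inducer of bone formation, rose from 1.74 ± 0.271 to 3.93 ± 0.526 CPM (log2 fold change 1.17, SE 0.22, adjusted p = 0.00229). Bmp3, which opposes the osteogenic BMPs, fell from 3.05 ± 0.494 to 1.39 ± 0.330 CPM (log2 fold change -1.13, SE 0.25, adjusted p = 0.00555). Bmp7 ranged from 7.59 to 29.1 CPM in non-senescent and from 9.85 to 26.3 CPM in senescent PTEC, so that the groups overlapped almost wholly (log2 fold change 0.28, adjusted p = 0.643).

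Bmp8a and Bmp8b are near-identical neighbours on chromosome 4, and reads could have been split between them, so that their opposite directions are uncertain. Bmp8a measured 1.32 to 1.41 CPM in non-senescent and 2.18 to 3.03 CPM in senescent PTEC (log2 fold change 0.97, SE 0.22, adjusted p = 0.00574). Bmp8b measured 4.82 to 5.83 CPM in non-senescent and 0.737 to 1.83 CPM in senescent PTEC (log2 fold change -1.82, SE 0.29, adjusted p = 0.000957). Each gene therefore had groups without overlap, at low levels and in opposite directions.

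Of the 9 GDF genes, Gdf6, Gdf11 and Gdf15 were tested in PTEC. Gdf11 and Gdf15 rose, and Gdf6 was close to absent from non-senescent PTEC. Gdf15 (chr8:70629393-70632456, minus strand), a stress-induced cytokine that lowers appetite, was the most abundant of all 43 members per kilobase in both PTEC groups. It measured 259, 208, 444 and 339.8 CPM in non-senescent PTEC and 747, 609, 1131 and 852 CPM in senescent PTEC. Replicate 3 was the highest culture and replicate 2 the lowest in each group, and the 4 paired ratios lay between 2.51 and 2.93. The log2 fold change was 1.42 (SE 0.27, adjusted p = 0.00233). Gdf11, a relative of myostatin with a part in axial patterning, rose from 11.9 ± 2.12 to 47.0 ± 10.5 CPM (log2 fold change 1.98, SE 0.21, adjusted p = 9.52e-05). Gdf6 (chr4:9844372-9862345, plus strand), a ligand of joint and skeletal development, had 2 counts in the 4 non-senescent cultures together and 776 in the 4 senescent cultures, and it passed the filter through the senescent cultures alone. Its senescent levels were 7.24, 3.42, 5.35 and 8.67 CPM, against 0, 0.0328, 0.0392 and 0 CPM. The ratio of summed counts, scaled for depth, was 353 with a 95% interval from 97.5 to 2923 that covers counting error only.

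Among the activin and inhibin subunits only Inha, the alpha subunit that makes inhibin in place of activin, was called. Its non-senescent cultures, with 10 counts in replicate 1, were too low to pass the filter by themselves, so that the filter favoured a rise. Inha measured 0.307, 0.492, 0.863 and 1.29 CPM in non-senescent and 1.54, 1.47, 4.40 and 3.28 CPM in senescent PTEC. The groups were close but did not overlap (log2 fold change 1.87, SE 0.51, adjusted p = 0.0149). The activin subunits Inhba and Inhbb had log2 fold changes of 0.46 and 0.57 (adjusted p = 0.292 and 0.115). Inhba measured 87.2, 64.0, 32.2 and 33.3 CPM against 88.0, 71.0, 48.7 and 90.7 CPM, which overlapped. Lefty1, an inhibitor of Nodal, came nearest to a call among the 13 tested members that were not called, with a log2 fold change of 0.77 and an adjusted p of 0.105. Without non-senescent replicate 3, its highest non-senescent culture, Lefty1 was called and 20 members were up-regulated. The log2 fold changes of these 13 members began at -0.24 for Chrdl1.

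Of the 11 antagonists and modulators, 6 rose, 1 fell and 4 were not called. Fst, follistatin, which binds activins, was second to Gdf15 per kilobase in both groups. It measured 167, 174, 273 and 256 CPM in non-senescent and 416, 352, 873 and 841 CPM in senescent PTEC. Replicates 3 and 4 were the higher cultures of each group, and the groups did not overlap (log2 fold change 1.51, SE 0.32, adjusted p = 0.0046). Fstl3, a follistatin-like binder of activin and myostatin, rose from 44.9 ± 4.74 to 92.0 ± 10.4 CPM (log2 fold change 1.03, SE 0.13, adjusted p = 0.000283), and 1157 of its exonic bases are also covered by Prss57 on the other strand. Fstl1, a secreted glycoprotein related to follistatin, rose from 39.3 ± 12.0 to 193 ± 68.7 CPM (log2 fold change 2.29, SE 0.33, adjusted p = 0.000494). Bmp1, a metalloproteinase that cleaves procollagen and the BMP antagonist chordin, rose from 155 ± 20.5 to 376 ± 72.7 CPM (log2 fold change 1.28, SE 0.17, adjusted p = 0.000338).

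The BMP binders Nog and Bmper were low and rose. Nog, noggin, measured 0.338 to 1.29 CPM in non-senescent and 1.84 to 3.45 CPM in senescent PTEC (log2 fold change 1.85, SE 0.40, adjusted p = 0.00495). Bmper, a secreted modulator of BMP4, measured 1.29 to 3.04 CPM and 3.59 to 9.17 CPM (log2 fold change 1.75, SE 0.36, adjusted p = 0.00353). Both therefore had senescent cultures above all non-senescent ones. Grem1, gremlin 1, measured 11.2, 7.38, 1.37 and 1.70 CPM in non-senescent and 8.11, 7.70, 5.32 and 5.80 CPM in senescent PTEC. Its non-senescent cultures spread from below to above the senescent range, and it was not called (log2 fold change 0.31, adjusted p = 0.699). Chrd, Chrdl1 and Bambi had log2 fold changes of 0.33, -0.24 and 0.22 and were not called either.

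Sostdc1 (chr12:36314139-36318452, plus strand), an antagonist of BMP and Wnt ligands that is made in the distal nephron, was the member that fell most. It measured 2.58, 2.56, 7.49 and 17.2 CPM in non-senescent PTEC and 0.901, 0.770, 1.51 and 0.518 CPM in senescent PTEC. The fall was present in all 4 numbered pairs, with ratios from 0.0302 to 0.349 (log2 fold change -2.99, SE 0.66, adjusted p = 0.00521). Without non-senescent replicate 4, its highest culture, the log2 fold change was -2.17 (SE 0.50, adjusted p = 0.00906). The summed level of 8 distal tubule and collecting duct genes was 4.67 to 29.2 CPM in non-senescent and 0.770 to 2.38 CPM in senescent PTEC, with 4 and 0 of the 8 at 1 CPM or more. For 5 loop of Henle genes the summed level was 18.2 to 48.7 CPM and 2.78 to 7.78 CPM. Their part in the fall of Sostdc1 was not tested. For 9 fibroblast and pericyte genes the summed level was 78.6 to 193 CPM in non-senescent and 33.3 to 84.1 CPM in senescent PTEC, while Lum and Dpt had at most 3 counts in every culture. This sum was carried by Cspg4, which fell from 105 ± 52.7 to 43.9 ± 16.0 CPM. Of the 6 genes tested, Pdgfrb, Dcn and Rgs5, 3 in all, rose, where 20.1% of all genes did. The median log2 fold change of the 6 was 1.08. With the replicate block 4 of the 6 rose, where 23.2% of all genes did. For 6 podocyte genes the summed level was 95.8 to 219 CPM in non-senescent and 220.2 to 480 CPM in senescent PTEC. Of the 5 tested, Synpo, which rose from 59.3 ± 16.3 to 257 ± 75.7 CPM, and Nphs1 were called higher, where 20.1% of all genes were. The summed level of the 10 proximal tubule genes was carried by Lrp2, at means of 203 and 227 CPM. Of the 6 tested, 3 were called lower and 0 higher, where 19.7% of all genes were lower. Their median log2 fold change was -1.80, and with the replicate block 4 of the 6 were lower, where 21.3% of all genes were. For 8 endothelial genes the summed level was 72.1 to 258 CPM in non-senescent and 80.4 to 302 CPM in senescent PTEC. Of these, 1 was called higher and 1 lower, and with the block 4 and 2. For 10 macrophage and leukocyte genes it was 85.3 to 128 CPM and 59.5 to 226 CPM. Of the 7 tested, 0 were higher and 2 lower, and with the block 1 and 3. The shares of all genes were 20.1% and 19.7%, and with the block 23.2% and 21.3%. The part of these lists in the changes of the secreted factors was not tested.

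**Figure D2:**
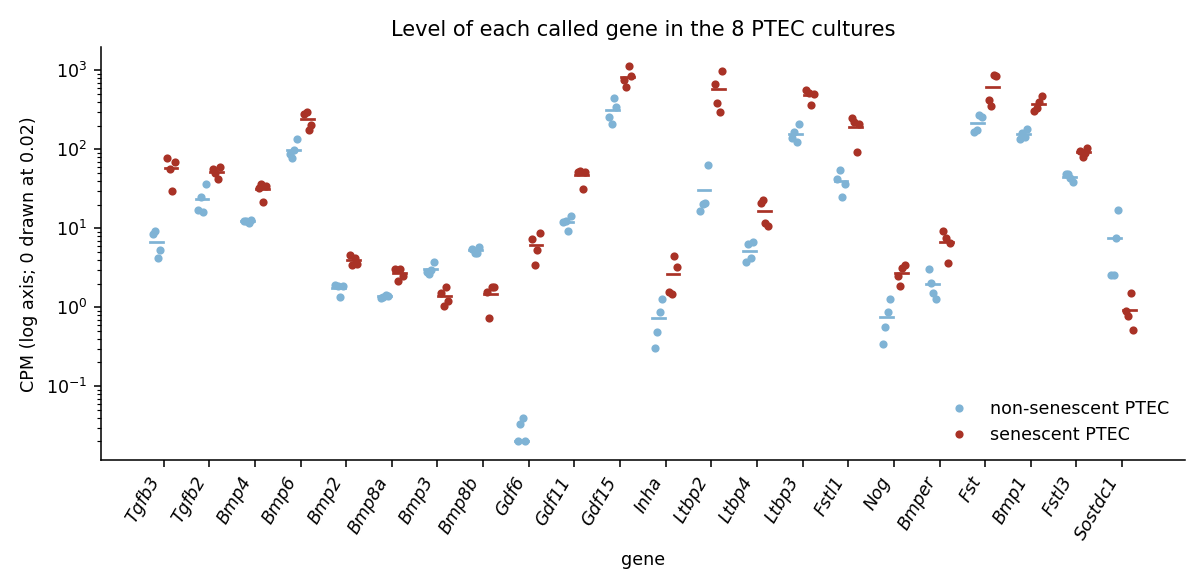
Level (CPM, log axis, 0 drawn at 0.02) of the 22 called members in each of the 4 non-senescent (blue) and 4 senescent (red) PTEC cultures, with a line at the mean of each group. Ltbp2 lies between 16.4 and 63.1 CPM in non-senescent cultures and between 301 and 973 CPM in senescent cultures, and Bmp3, Bmp8b and Sostdc1 alone have the senescent cultures below.

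Other genes of the pathway were taken from a list of 65 receptors, Smads, targets, activators and further family members. Of the 50 tested in PTEC, 20 rose and 2 fell, where 20.1% and 19.7% of all genes did. With the replicate block 23 rose and 2 fell, where 23.2% and 21.3% of all genes did. None of 9 BMP and activin receptors was called by edgeR without the block, with 1 at an unadjusted p under 0.05, which 51.6% of all genes reached. With the block Bmpr2, a type II receptor of BMPs, was called higher (log2 fold change 0.98, adjusted p = 0.00159, against 0.0841 without it). Of 14 Smads and Smad inhibitors, 4 rose, and with the block Skil, a repressor of Smad activity, was called as well (adjusted p = 0.0148, against 0.0871). Smad6 and Smad7, the inhibitory Smads, had the largest log2 fold changes of these, 1.30 (SE 0.21, from 11.8 ± 1.44 to 29.0 ± 7.71 CPM) and 1.29 (SE 0.18, from 39.7 ± 10.2 to 97.5 ± 3.47 CPM). Smad3, which carries the TGF-beta signal, rose by a log2 fold change of 0.55 (adjusted p = 0.0195). Its call was lost without non-senescent replicates 3 or 4, where the log2 fold change was 0.46 and 0.47, and without senescent replicates 1 or 4 (adjusted p = 0.0521 and 0.0518). Of 10 target genes of TGF-beta, 7 rose and 1 fell, and with the block Col1a1, a collagen chain, was also called higher (adjusted p = 0.00763, against 0.0571). Acta2, smooth muscle actin, rose from 60.5 ± 25.8 to 695 ± 248 CPM (log2 fold change 3.52, SE 0.37). Postn, the matrix protein periostin, rose from 4.35 ± 1.34 to 41.9 ± 21.4 CPM (log2 fold change 3.27, SE 0.38). Tgfbi, which is named for its induction by TGF-beta, fell from 2.86 ± 1.61 to 0.294 ± 0.225 CPM (log2 fold change -3.26, SE 0.58). The senescent cultures were too low to pass the filter by themselves, so that, as for Gdf6, the direction of Tgfbi was fixed by the filter.

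Of 7 BMP target genes tested, 4 rose, beside 20.1% of all genes. Msx2, a homeobox gene, rose from 1.54 ± 0.280 to 4.40 ± 1.68 CPM (log2 fold change 1.51, SE 0.32). Atoh8, a helix-loop-helix factor, had a log2 fold change of 1.12 (adjusted p = 0.0318), but its groups overlapped and its adjusted p was 0.0502, 0.0701 and 0.0782 without non-senescent replicates 1, 2 and 4, and 0.100 and 0.0927 without senescent replicates 1 and 2. Of 8 activators of latent TGF-beta, 3 rose and 1 fell, beside 20.1% and 19.7% of all genes. Thbs1, thrombospondin 1, rose from 1493 ± 642 to 5021 ± 1589 CPM (log2 fold change 1.75, SE 0.36), and Lrrc32, the anchor GARP, rose from 19.2 ± 8.24 to 45.5 ± 11.8 CPM (log2 fold change 1.24, SE 0.31). Itgb6, the beta subunit of an integrin that releases TGF-beta, had a log2 fold change of -0.91 (adjusted p = 0.0340) with overlapping groups. Its call was lost without non-senescent replicate 4 (adjusted p = 0.0928) or senescent replicates 1, 2 or 4 (0.0947, 0.0800 and 0.0556). Among the further antagonists, Nbl1 rose from 41.4 ± 4.01 to 112 ± 29.5 CPM (log2 fold change 1.44, SE 0.19) and Twsg1 from 190.0 ± 58.7 to 424 ± 49.9 CPM (log2 fold change 1.16, SE 0.23).

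**Figure D3:**
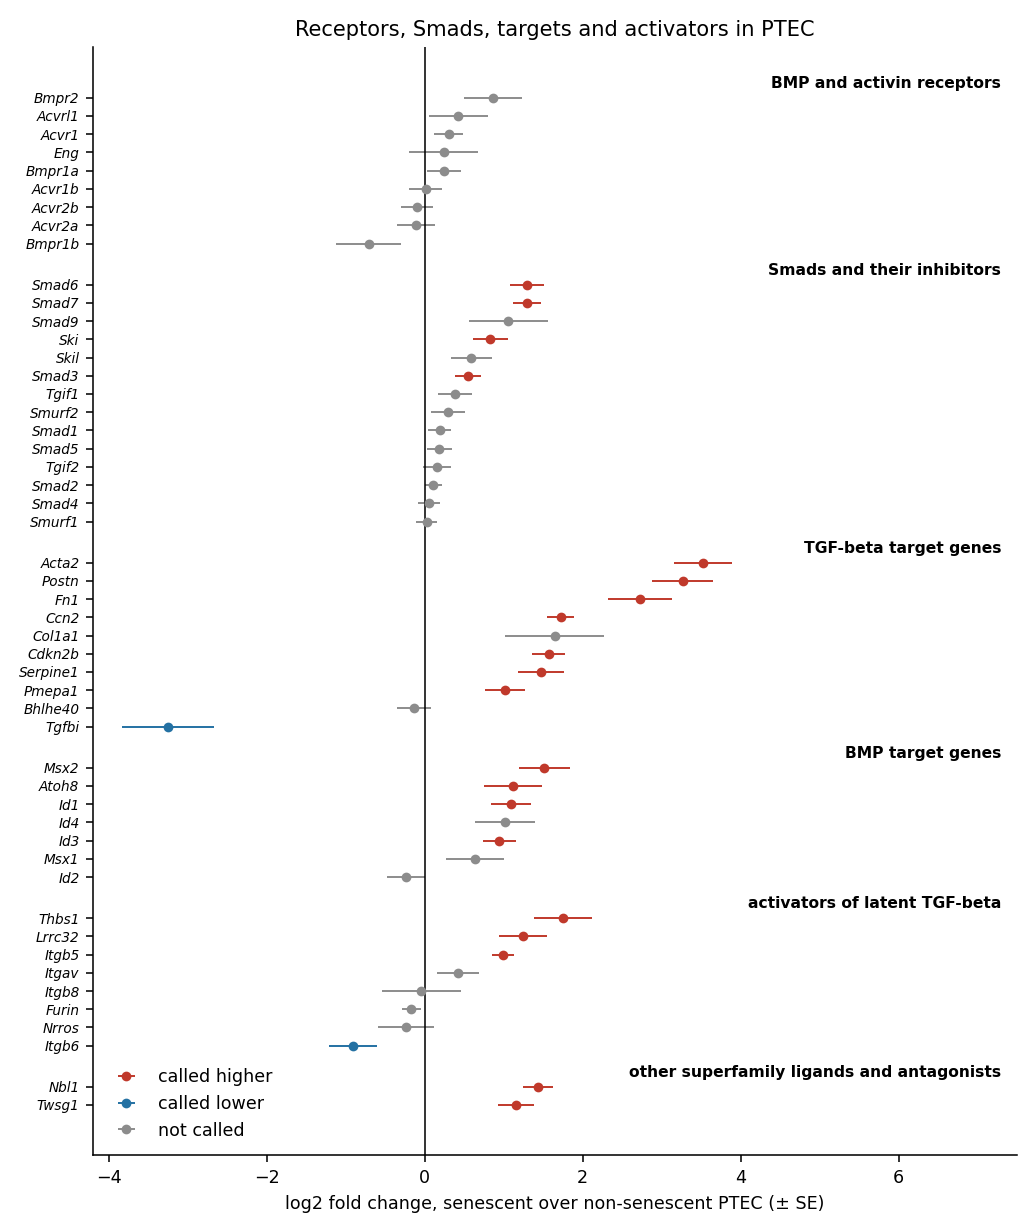
Log2 fold change (x axis, senescent over non-senescent PTEC, 4 cultures each) of the 50 other pathway genes tested, one point per gene with its standard error as a bar, grouped by role and coloured by call. Of these, 20 were called higher (red) and 2 lower (blue), and none of the 9 receptors tested was called. These calls are from the fit without the replicate block. With the block Bmpr2, Skil and Col1a1 were called higher as well.

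The kidneys were used to ask how the same genes change with age. Of the 43 members, 35 were tested in kidneys, 33 of them also in PTEC. By edgeR without the replicate block, 5 members, Ltbp2, Grem1, Gdf15, Bmp3 and Sostdc1, were called in at least 1 of the 3 age comparisons. The comparisons of 24 with 3 months and of 12 with 3 months share the 3-month mice, those of 24 with 3 and of 24 with 12 months share the 24-month mice, and those of 12 with 3 and of 24 with 12 months share the 12-month mice. Between 3 and 24 months, 3 of 35 members rose and none fell by edgeR, where 1.89% of all 17067 genes rose and 0.451% fell. DESeq2 called 6 members higher and 1 lower, where it called 2.42% and 1.03% of 30029 genes. An unadjusted p under 0.05 was found for 11 members and 18.2% of all genes. Between 3 and 12 months, no member rose and 3 fell by edgeR, against 1.22% and 1.36% of all genes. DESeq2 called 1 higher and 3 lower, against 1.77% and 1.92%, and 9 members and 16.5% of all genes had an unadjusted p under 0.05. Between 12 and 24 months, 4 rose and none fell by edgeR, against 0.896% and 0.434% of all genes. DESeq2 called 5 higher and none lower, against 1.64% and 0.952%, and 11 members and 15.2% of all genes had an unadjusted p under 0.05. With the replicate block and all ages in the fit, 0 members and 0% of the genes were called between 12 and 24 months. The median log2 fold changes of the members were 0.06, -0.04 and 0.19 in the 3 comparisons.

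Ltbp2, Gdf15 and Grem1 were the 3 members that edgeR called higher at 24 months in the comparisons with both younger ages. The bases from 250 to 51 before their RefSeq start sites (GRCm38.p6, all on the minus strand and shown 5′ to 3′) are printed to show what letters these genes have ahead of their starts. Capitals mark a SMAD box (CAGAC or GTCTG) or a GC box (GGGCGG or CCGCCC). The windows are chr12:84876542-84876741 for Ltbp2, chr8:70632507-70632706 for Gdf15 and chr2:113758699-113758898 for Grem1.
Ltbp2: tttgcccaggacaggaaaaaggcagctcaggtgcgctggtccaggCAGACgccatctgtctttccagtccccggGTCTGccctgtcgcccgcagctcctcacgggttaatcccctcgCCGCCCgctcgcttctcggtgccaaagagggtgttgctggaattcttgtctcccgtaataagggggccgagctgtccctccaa
Gdf15: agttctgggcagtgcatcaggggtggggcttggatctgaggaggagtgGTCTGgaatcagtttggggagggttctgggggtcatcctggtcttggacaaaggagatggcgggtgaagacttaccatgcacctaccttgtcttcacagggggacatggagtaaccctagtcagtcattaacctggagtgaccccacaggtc
Grem1: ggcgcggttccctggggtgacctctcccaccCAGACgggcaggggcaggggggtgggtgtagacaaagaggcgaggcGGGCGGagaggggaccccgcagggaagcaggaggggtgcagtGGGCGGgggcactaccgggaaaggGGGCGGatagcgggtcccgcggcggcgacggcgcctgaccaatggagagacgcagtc
The Ltbp2 window held 2 SMAD boxes and 1 GC box, the Gdf15 window 1 SMAD box, and the Grem1 window 1 SMAD box and 3 GC boxes. Neither the AP-1 letters TGANTCA nor the TATA letters TATAAA were in these 3 windows on either strand. Of 32851 RefSeq windows of the same 200 bases, 35.8% held a SMAD box, 24.6% a GC box, 5.57% the AP-1 letters and 9.14% the TATA letters. Of the 27 members with an entry, 15 held a SMAD box, 15 a GC box, 0 the AP-1 letters and 2 the TATA letters. These matches describe the letters and no binding was measured.

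Ltbp2 was low in kidneys and measured 0.263, 0.430 and 0.472 CPM at 3 months, 0.781, 0.543 and 0.753 CPM at 12 months, and 2.76, 1.88 and 3.03 CPM at 24 months. No 2 ages overlapped, and the lowest 24-month mouse was above the highest 12-month mouse. At 24 against 3 months the ratio of means was 6.59 and the log2 fold change 2.70 (SE 0.31, adjusted p = 0.00398). This call was kept without any one mouse (adjusted p up to 0.0293). The log2 fold change from 12 to 24 months was 1.88 (SE 0.29, adjusted p = 0.0240), and the adjusted p was 0.101 with the replicate block and 0.0571 to 0.111 without each of the 6 mice in turn. Ltbp2 was not called at 12 against 3 months (log2 fold change 0.82, adjusted p = 0.224).

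Grem1, gremlin 1 (chr2:113746164-113758646, minus strand), which binds BMP2 and BMP4, measured 0.131, 0.246 and 0.472 CPM at 3 months and 0.347, 0.280 and 0.135 CPM at 12 months. At 24 months it measured 2.64, 3.51 and 2.64 CPM. The younger ages overlapped and rested on 5 to 21 counts a library, whereas the 24-month mice had 172 to 231 counts and lay well above both. From 3 to 24 months Grem1 had a log2 fold change of 3.35 (SE 0.46, adjusted p = 0.00955). Leaving out single mice kept this call (adjusted p up to 0.0446). Its log2 fold change from 12 to 24 months was 3.51 (SE 0.45, adjusted p = 0.0181, and 0.0960 with the replicate block), and this call was kept only without 24-month mouse 3 (adjusted p = 0.0457, otherwise 0.0571 to 0.0956).

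Gdf15 measured 9.48, 6.00 and 12.7 CPM at 3 months, 3.85, 3.67 and 3.55 CPM at 12 months, and 23.3, 28.4 and 17.1 CPM at 24 months. The 12-month mice were the lowest and the 24-month mice the highest, and no 2 ages overlapped. Gdf15 rose most from 12 to 24 months, with a log2 fold change of 2.63 (SE 0.29, adjusted p = 0.0163, and 0.0958 with the replicate block), a call kept only without 24-month mouse 3 (adjusted p = 0.0203, otherwise 0.0527 to 0.0956). From 3 to 24 months it had a log2 fold change of 1.29 (SE 0.28, adjusted p = 0.0499). This call lay at the threshold and was lost without any 24-month mouse or without 3-month mouse 1 (adjusted p from 0.0628 to 0.195). From 3 to 12 months its log2 fold change was -1.35 (SE 0.28, adjusted p = 0.0448), kept only without 3-month mouse 2 (adjusted p = 0.00891, otherwise 0.0949 to 0.160).

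Bmp3 (chr5:98854415-98884396, plus strand) measured 7.56, 2.87 and 5.51 CPM at 3 months, 0.954, 0.559 and 0.907 CPM at 12 months, and 3.88, 2.74 and 4.16 CPM at 24 months. The 12-month mice lay below all others, and the youngest and oldest mice overlapped. Bmp3 fell from 3 to 12 months with a log2 fold change of -2.72 (SE 0.39, adjusted p = 0.0142). This call was lost without 12-month mouse 1 or 3 (adjusted p = 0.0588 and 0.0710) or 3-month mouse 1 (0.0537). It rose from 12 to 24 months with a log2 fold change of 2.15 (SE 0.38, adjusted p = 0.0370, and 0.0751 with the replicate block), and it was lost without each of the 6 mice in turn (adjusted p from 0.0782 to 0.135).

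Sostdc1 was the most abundant member per kilobase at every age, at 68.3 CPM per kb at 3 months, 32.5 at 12 months and 42.3 at 24 months. It measured 118, 108 and 139.7 CPM at 3 months, 54.3, 64.2 and 55.0 CPM at 12 months, and 71.9, 65.4 and 88.7 CPM at 24 months. The 3-month mice were above all older mice. Sostdc1 fell from 3 to 12 months with a log2 fold change of -1.07 (SE 0.17, adjusted p = 0.0208). The call was lost without 12-month mouse 1 or 3 or 3-month mouse 1 or 3 (adjusted p from 0.0592 to 0.0878). The summed level of the 8 distal tubule and collecting duct genes was 1253 to 1559 CPM at 3 months, 805 to 1025 CPM at 12 months and 1063 to 1376 CPM at 24 months, and its part was not tested.

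**Figure D4:**
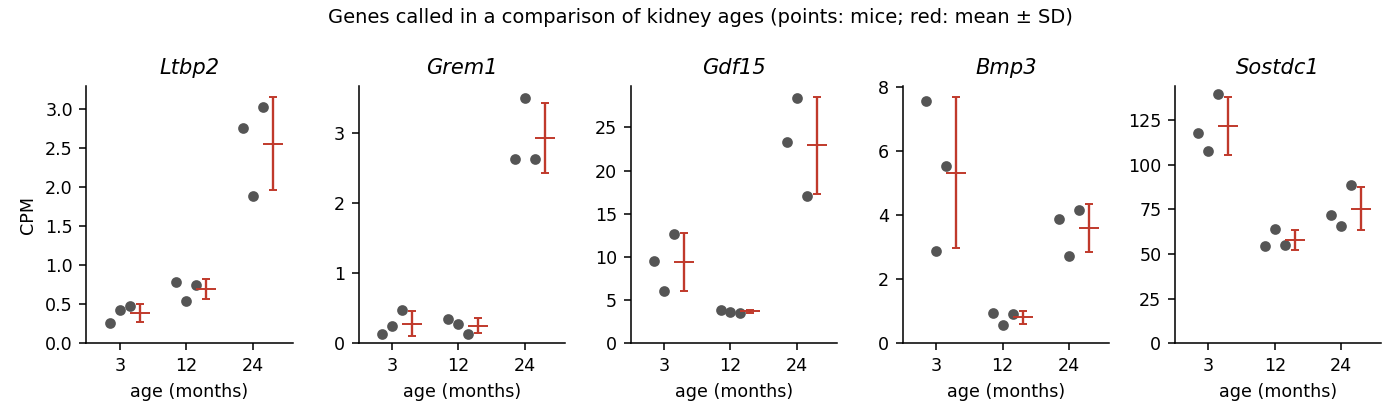
Level (CPM, one linear axis per gene from 0) of the 5 members called in an age comparison by edgeR without the replicate block, with a point for each mouse at 3, 12 and 24 months (n = 3 each) and the mean ± SD in red. Ltbp2 and Grem1 are highest at 24 months, Bmp3 and Gdf15 are lowest at 12 months, and Sostdc1 is highest at 3 months.

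The 24-month rises stood beside other differences of these kidneys. Macrophage and leukocyte genes, 10 in all, had a summed level of 108 to 172 CPM at 3 months, 159.7 to 189 CPM at 12 months and 178 to 230.3 CPM at 24 months. That of 8 immediate early genes was 62.0 to 83.0 CPM, 42.5 to 54.4 CPM and 95.3 to 944 CPM, the highest value being that of 24-month mouse 1. The summed level of the 9 fibroblast and pericyte genes was 107 to 143 CPM, 139 to 169 CPM and 136 to 158 CPM. For the 10 proximal tubule genes it was 10769 to 18670.5 CPM, 12484 to 19774 CPM and 15619 to 20227 CPM. For 8 endothelial genes it was 265 to 367 CPM, 379 to 464 CPM and 246 to 455 CPM. At 24 against 3 months 2 macrophage and leukocyte, 2 proximal tubule and 1 immediate early gene were called higher, against 1.89% of all genes. With the replicate block 1, 0 and 0 were, against 0.598%. The part of these lists in the changes of Ltbp2, Grem1 and Gdf15 was not tested.

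With the replicate block and only the 12- and 24-month mice in the fit, 6 members rose and none fell, where 7.77% of 16686 genes rose and 5.41% fell. The log2 fold changes were 2.61 for Gdf15 (adjusted p = 5.79e-05), 3.54 for Grem1 (0.000408), 2.16 for Bmp3 (0.000658), 1.87 for Ltbp2 (0.00174), 0.92 for Fstl3 (0.00641) and 0.80 for Bmp6 (0.0104). Bmp6 measured 62.2, 31.9 and 65.8 CPM at 12 months and 92.3, 78.2 and 95.5 CPM at 24 months. At both ages mouse 2 was the lowest, and the ages did not overlap. Fstl3 measured 4.67, 4.39 and 4.30 CPM at 12 months and 9.94, 6.70 and 8.99 CPM at 24 months, also without overlap (log2 fold change 0.94, adjusted p = 0.0505, with all 3 ages and no block). This fit was added after the correlations of same-numbered mice had been seen, and a pairing of these mice was not established.

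The remaining members gave no call in kidneys by edgeR without the block. At 24 against 3 months the 32 members not called ran from -0.74 for Fst to 1.57 for Inhbb. Inhbb measured 1.44, 1.27 and 1.55 CPM at 3 months and 7.39, 3.07 and 2.18 CPM at 24 months, without overlap but with mouse 1 far above the others (adjusted p = 0.109 by edgeR and 0.0158 by DESeq2). Bmp1 measured 4.73, 6.37 and 4.93 CPM and 11.3, 8.88 and 9.57 CPM, also without overlap (log2 fold change 0.89, adjusted p = 0.0516 by edgeR and 0.00243 by DESeq2). Gdf10, which is also known as BMP3b, measured 4.07, 5.20 and 3.33 CPM at 3 months, 9.26, 7.78 and 7.97 CPM at 12 months and 12.1, 6.26 and 6.96 CPM at 24 months. The older mice lay above the 3-month mice, and DESeq2 called both differences (adjusted p = 0.0328 and 0.0303) where edgeR did not (0.102 and 0.106). Sostdc1 was called lower at 24 than at 3 months by DESeq2 alone (adjusted p = 0.00437, and 0.0720 by edgeR).

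Of the 35 members, 9 were higher and 4 were lower without overlap at 24 than at 3 months, against 11.9% and 10.1% of all genes. Between 12 and 3 months the numbers were 3 and 7, against 10.9% and 9.4%. At 24 against 12 months they were 11 and 4, against 13.5% and 12.2%. The TGF-beta ligands that rose in PTEC were low in kidneys, Tgfb2 at 0.877 to 2.32 CPM and Tgfb3 at 0.989 to 1.70 CPM, and neither was called at any age.

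Of the 65 other pathway genes, 53 were tested in kidneys. At 24 against 3 months Tgfbi alone rose and none fell by edgeR, where 1.89% and 0.451% of all genes did. DESeq2 called 3 higher and 4 lower, against 2.42% and 1.03% of all genes, and 15 had an unadjusted p under 0.05, against 18.2%. Tgfbi measured 8.39 ± 0.964 CPM at 3 months and 24.6 ± 12.7 CPM at 24 months (SD, n = 3, log2 fold change 1.55, adjusted p = 0.0395), and its call was lost without 3-month mouse 1 or 3 (adjusted p = 0.190 and 0.114). At 12 against 3 months Itgb6, Thbs1, Twsg1 and Msx2 fell, where 1.36% of all genes did. Msx2 lies under 1 CPM and is named because the count is small. These 4 had adjusted p from 0.0236 to 0.0455, were lost in 5 of 6 fits that left out a mouse, and kept their call only without 3-month mouse 2.

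At 24 against 12 months Itgb6 rose and Id1 and Id3, helix-loop-helix inhibitors induced by BMPs, fell, where 0.896% of all genes rose and 0.434% fell. Id1 fell from 25.3 ± 1.34 to 11.5 ± 3.21 CPM and Id3 from 60.8 ± 13.6 to 23.3 ± 7.69 CPM, with log2 fold changes of -1.13 and -1.39 (adjusted p = 0.0386 and 0.0456, and 0.133 for each with the block). Both were lost without each of the 6 mice in turn, Id1 at 0.0571 to 0.145 and Id3 at 0.0571 to 0.162. Itgb6 had a log2 fold change of 1.07 (adjusted p = 0.0443, and 0.142 with the block) and was likewise lost without each mouse (0.0803 to 0.152). With the block and these 2 ages alone, Id1, Id3 and Itgb6 were called (adjusted p = 0.00349, 0.000260 and 0.00187).

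Levels per kilobase of exon gave the order of the members within each group. At 1 CPM per kb or more stood 23 of the 43 members in non-senescent PTEC, 28 in senescent PTEC and 17 at each kidney age, and at 10 CPM per kb or more stood 8, 14, 4, 4 and 5. In non-senescent PTEC the highest 5 were Gdf15, Fst, Tgfbr2, Bmp6 and Fstl3, and in senescent PTEC they were Gdf15, Fst, Ltbp2, Bmp6 and Ltbp3. Gdf15 stood at 169 and 451 CPM per kb, Fst at 47.4 and 135 CPM per kb, and Ltbp2 at 3.70 and 71.2 CPM per kb. In kidneys Sostdc1 came first, followed by Bmp4, Bmp6 and Bmp7, whose order changed with age. At 3 months these 3 stood at 12.6, 11.8 and 10.0 CPM per kb, and neighbours in this order did not differ beyond their spread. Libraries of PTEC and kidneys were scaled apart, so that levels across them are a description.

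**Figure D5:**
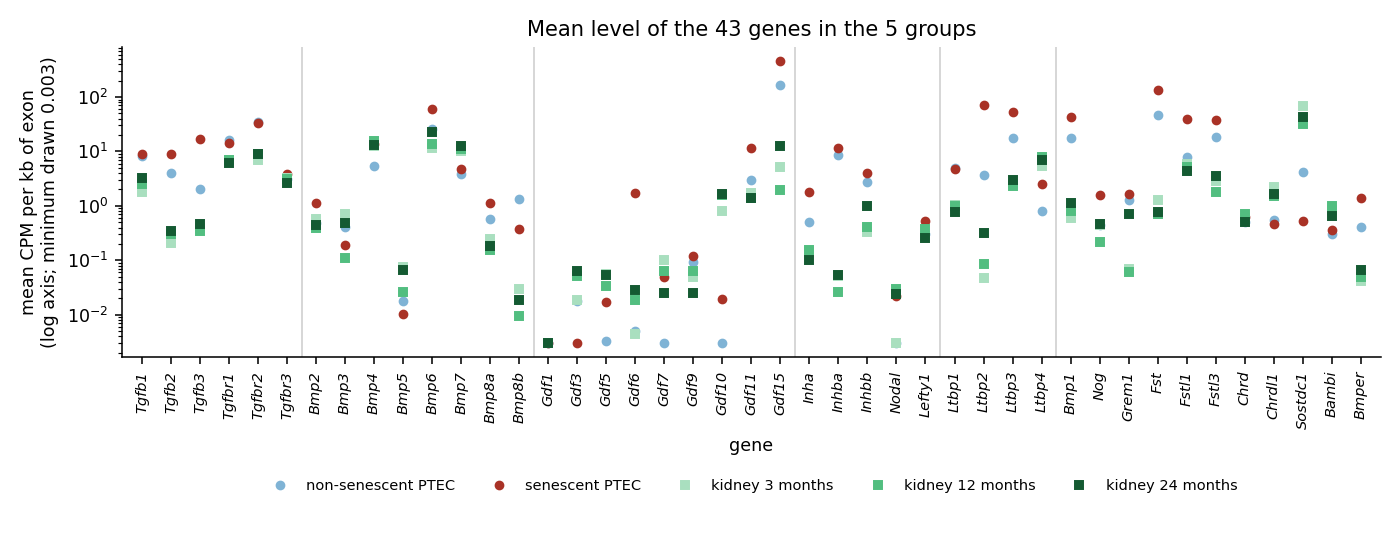
Mean level (CPM per kb of exon, log axis, values under 0.003 drawn at 0.003) of the 43 members in non-senescent and senescent PTEC (circles, n = 4 each) and in kidneys at 3, 12 and 24 months (squares, n = 3 each), with grey lines between the roles. Gdf15 and Fst lead in PTEC and Sostdc1 leads in kidneys.

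Members that did not pass the filter were at or near 0. In PTEC these were Bmp5, Gdf1, Gdf3, Gdf5, Gdf7, Gdf9, Gdf10 and Nodal, and in kidneys Bmp8b, Gdf1, Gdf3, Gdf5, Gdf6, Gdf7, Gdf9 and Nodal. Gdf1 had no count in any of the 17 libraries, and all 1349 of its exonic bases lie within Cers1 on the same strand. Gdf10, at 3.33 CPM or more in every kidney, had no count in non-senescent PTEC and 0 to 0.201 CPM in senescent PTEC. Gdf6, which had 776 counts in senescent PTEC, stood at 0.122 CPM or less in every kidney. By edgeR without the replicate block, 20 members were called in no comparison, 6 of them being tested in neither PTEC nor kidneys.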

How the data were processed

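RNA from 8 PTEC cultures and 9 kidneys had been sequenced by the authors as stranded libraries of enriched mRNA. The authors name nf-core/rnaseq 1.4.2 on GRCm38 with GENCODE M 18, in an account of a pool of 9 libraries. The counts list 53715 gene identifiers in PTEC, 54146 in 3-month kidneys and 55401 in older kidneys, so that this release may not hold for all of them. The authors deposited whole-number read counts for each gene, not normalized. Neither the counting tool nor its use of strand is given in the sources used here. Symbols and positions are those of GENCODE M 21. The members and lists were chosen with earlier results of these data known.

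The deposited counts were taken unchanged. Fits were run with edgeR 4.0.16 (on limma 3.58.1) and DESeq2 1.42.0 under R 4.3.3. Summaries and figures were made under Python 3.11.15 using pandas 2.3.3, numpy 2.4.6, scipy 1.17.1 and matplotlib 3.10.9. Separate fits were made for PTEC and for kidneys, the latter on 53772 identifiers shared by all ages. TMM scaling and filterByExpr came first, then edgeR's quasi-likelihood test, with Benjamini-Hochberg adjustment over every gene tested. Unless DESeq2 is named, adjusted p-values are from edgeR. All ages shared one estimate of the spread. Called members are given with their statistics. Of each pathway list, the 2 largest rises and falls at 1 CPM or more are named. One gene of these lists is not reported here. Promoter windows are from RefSeq, which gave an entry for 27 members and none for 16. The tests were first tried on simulated counts with known changes. Libraries of 1 group never agreed within sampling noise (chi-square 15.8 to 312 per gene in 21 pairs), and intervals cover counting error only. Alternatives were other size factors, DESeq2, no filter, no fold threshold, a replicate block, only the 2 ages compared, and each library left out. Same-numbered PTEC cultures deviated together from their group means, with r of 0.284, 0.382, 0.614 and 0.186. Same-numbered 12- and 24-month mice did so with r of 0.384, 0.557 and 0.172. These numbers were taken to pair the libraries, but some differently numbered libraries also correlated. The r was 0.265 between non-senescent culture 2 and senescent culture 1. It was 0.191 between 12-month mouse 1 and 24-month mouse 3, and 0.270 between 12-month mouse 3 and 24-month mouse 1. It reached 0.747 between 3-month mouse 3 and 12-month mouse 2. Mice of different ages are different animals, and their pairing was not established.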

Additional observations from a re-analysis of the deposited data

Results flagged for a closer look

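In 4 of the 70 groups of PTEC values examined, 1 culture lay far from the other 3 of its group, its gap to the nearest, as a share of the whole range, being above the 95% critical value of Dixon's test. Chance gives such a gap in about 1 in 20 groups. Bmp2 measured 1.33 CPM in non-senescent replicate 3, where the others lay between 1.85 and 1.91 CPM. Gdf11 measured 31.3 CPM in senescent replicate 3, where the others lay between 51.0 and 53.5 CPM. Lefty1 measured 0.902 CPM in non-senescent replicate 3, where the others lay between 0.369 and 0.460 CPM. Ltbp2 measured 63.1 CPM in non-senescent replicate 4, where the others lay between 16.4 and 20.9 CPM. Bmp2, Gdf11 and Ltbp2 were called in PTEC with and without these cultures, and Lefty1 was called only without its outlying culture.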

How the results depend on the processing

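In PTEC all 264 alternative values of the 22 called members kept their direction and call, and 19 to 20 members were up-regulated and 3 down-regulated with each culture left out. Among kidneys, 25 of 36 alternative values of called members kept their call at 24 against 3 months, 16 of 36 at 12 against 3 months and 22 of 48 at 24 against 12 months, and none changed direction. At 24 against 3 months, 6 members were higher and 1 lower with DESeq2, 1 was higher with the replicate block (0.598% of all genes) and 0 with the block and only these 2 ages. At 12 against 3 months, 1 was higher with DESeq2, 1 was lower with the replicate block (0.387% of all genes), and 0 were lower with only these 2 ages, with or without the block. At 24 against 12 months, 0 were higher with the replicate block in the fit of all ages, where none of the 17067 genes was called. Same-numbered mice of 3 and 12 or 24 months correlated in their deviations with r from -0.701 to -0.0336, so that the block does not pair them. Under it the adjusted p was 0.0227 for Ltbp2, 0.0520 for Grem1 and 0.159 for Gdf15 at 24 against 3 months. It was 0.0101 for Bmp3, 0.0658 for Sostdc1 and 0.137 for Gdf15 at 12 against 3 months. In PTEC the replicate block gave 19 members higher and 3 lower and changed no call of a member, and 23 pathway genes were higher and 2 lower. With each mouse left out, 2 to 4 members were higher and 0 to 1 lower at 24 against 3 months, 0 higher and 0 to 3 lower at 12 against 3 months, and 0 to 2 higher and 0 lower at 24 against 12 months. Of the pathway genes, 3 were higher and 4 lower with DESeq2 at 24 against 3 months, 2 lower without the filter, and 0 higher with the replicate block, with only these 2 ages or with both. At 12 against 3 months, 1 was higher and 8 lower with DESeq2, 0 lower with the replicate block, and with only these 2 ages 1 was higher and 0 lower, the latter also with the block. At 24 against 12 months, 2 were higher with DESeq2, 0 were higher and 0 lower with the replicate block or with only these 2 ages, and 7 were higher and 3 lower with both. With each library left out, 19 to 24 pathway genes were higher and 1 to 3 lower in PTEC, 0 to 2 and 0 to 4 at 24 against 3 months, 0 to 1 and 0 to 7 at 12 against 3 months, and 0 and 0 at 24 against 12 months. The cause of these differences was not tested. With 3 mice an age, precision was limited at low counts, and a member that gave no call was not shown to be unchanged.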
